A study of Mus musculus with 4 samples.

Results

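Gene-proximal intergenic Pax7 peaks are sites that lie between genes but close to the start of a transcript, which can itself lie inside a gene. Of the 20579 Pax7 peaks in the deposited list, 1624 had a summit inside no annotated gene of any type and more than 1 kb, but at most 10 kb, from the nearest transcription start site (TSS) of any transcript. They made up 7.89% of all peaks (95% Wilson interval 7.53% to 8.27%). Positions are those of mouse build NCBIM37 (mm9) with the GENCODE vM1 annotation, and the choice of these peaks used position alone, not enrichment.

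Binding was measured by ChIP-seq with an anti-Pax7 antibody in iPax7 cells, mouse embryonic stem (ES) cells that carry a doxycycline-inducible Pax7 transgene and were taken towards skeletal muscle progenitors with a serum protocol. All 4 libraries, 2 Pax7 ChIP and 2 input, came from cells given 1 µg/ml doxycycline for 6 days from day 3, sorted as PDGFRα+FLK1- on day 5, grown with 10 ng/ml basic FGF and harvested on day 9. Pax7 was thus supplied by the transgene in every library, and no library without doxycycline enters the peak list. The peaks were called once, on the merged ChIP libraries against the merged inputs, so each peak has 1 pooled value and no replicate spread. Intervals below are 95% intervals that cover counting error only and treat peaks as independent, and no p-value is given. The depth of each library is not in the peak list, and neither gene expression nor any mark of the cell type was measured in these files. The nearest gene of a peak is a position, not an established target.

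Pax7 is a transcription factor of muscle stem cells and of the embryonic progenitors that form skeletal muscle. It carries a pair of DNA-binding domains, a paired domain and a homeodomain, which can contact DNA separately or together. The paired domain recognises sequences built around GTCACG, while homeodomains recognise TAAT and its reverse complement ATTA, singly or as inverted pairs separated by a few bases. The 8-letter sequence ATTAGTCA joins a homeodomain half-site to the start of a paired-domain site.

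The windows that follow cover 50 bp on each side of the summit, 101 bases in all, and were read from the plus strand of NCBIM37. They show the 4 strongest proximal peaks, the strongest peak with each further Pax sequence and the peaks nearest to muscle lineage factors that held a Pax sequence. Capitals mark GTCACG (or CGTGAC, the same sequence read from the other strand), ATTAGTCA, and TAAT paired with ATTA at a spacing of 2 or 3 bases. The windows are chr1:60756457-60756557 upstream of Gm11577, chr12:3235422-3235522 upstream of 1700012B15Rik, chr11:66831400-66831500 upstream of Tmem220, chr2:110032936-110033036 upstream of Gm13936, chr17:32000294-32000394 upstream of Sik1, chr19:25755967-25756067 downstream of Dmrt2 and chr17:86095069-86095169 upstream of Six2.
Gm11577: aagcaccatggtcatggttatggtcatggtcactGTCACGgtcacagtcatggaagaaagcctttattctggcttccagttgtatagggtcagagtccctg
1700012B15Rik: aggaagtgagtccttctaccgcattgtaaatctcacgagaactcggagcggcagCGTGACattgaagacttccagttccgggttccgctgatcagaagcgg
Tmem220: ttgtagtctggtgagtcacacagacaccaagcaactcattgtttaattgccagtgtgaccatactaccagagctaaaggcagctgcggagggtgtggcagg
Gm13936: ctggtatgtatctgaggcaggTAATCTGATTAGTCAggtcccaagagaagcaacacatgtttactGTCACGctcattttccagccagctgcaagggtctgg
Sik1: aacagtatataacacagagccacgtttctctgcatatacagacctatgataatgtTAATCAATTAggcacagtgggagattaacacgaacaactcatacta
Dmrt2: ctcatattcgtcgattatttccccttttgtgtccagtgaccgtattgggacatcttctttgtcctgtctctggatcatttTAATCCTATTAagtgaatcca
Six2: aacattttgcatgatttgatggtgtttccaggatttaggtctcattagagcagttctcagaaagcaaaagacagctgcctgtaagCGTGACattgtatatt

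The strongest proximal peak, chr1:60756318-60756722 near the pseudogene Gm11577, held GTCACG 13.5 bp from its summit and 3 copies of GTCATG, which differs from the paired-domain core in 1 letter. The window near 1700012B15Rik held the core on the minus strand, 6.5 bp from the summit. The window near Tmem220 held no capitalised sequence. The window near Gm13936 held an inverted TAAT pair that runs into ATTAGTCA, and a separate GTCACG on the other side of the summit. The Sik1 window held a pair with 2 bases between the half-sites and the Dmrt2 window a pair with 3 bases between them. The Six2 window held the core on the minus strand, 37.5 bp from the summit.

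GTCACG lay within 50 bp of the summit in 176 of 1624 proximal peaks (10.8%, 9.42% to 12.4%), against a mean of 0.800% in windows of the same length 500 bp to either side, a ratio of 13.5. Among all Pax7 peaks 11.1% held it. ATTAGTCA was present in 48 proximal peaks (2.96% against 0.308% in the flanks), and the inverted pairs with a spacing of 2 or 3 bases in 14 peaks each (0.862% against 0.246% and 0.216%). At least 1 of these 4 sequences lay near 240 summits (14.8%, 13.1% to 16.6%, against 1.54% in the flanks), so most proximal peaks held none of them within 50 bp. GTCACG and ATTAGTCA, which overlap in the letters GTCA where ATTAGTCA is followed by CG, occurred together in 6 peaks. Each motif was searched on both strands.

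The cores sat near the summit. The median distance from summit to the centre of the nearest GTCACG was 16.5 bp, and 109 of the 176 peaks (61.9%) had it within 20 bp. Read along the core, the base after GTCACG was G in 108 of 187 cores (57.8%, 50.6% to 64.6%) and C in 62 (33.2%), against 23.5% for each in the windows as a whole. The base after that was T in 93 cores (49.7%) against 26.5%, and C stood directly before the core in 11 (5.88%). The most frequent 8-letter extension was GTCACGGT, in 59 cores (31.6%), followed by GTCACGCT in 30 (16.0%).

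A count of every 6-letter sequence, 2080 with reverse complements joined, showed a frequent hexamer that differs from the core in 1 letter. Whether Pax7 binds this hexamer was not tested. GTCATG was present near 260 proximal summits (16.0%, 14.3% to 17.9%) against 3.63% in the flanks, the greatest excess of any hexamer, followed by CAGCTG. It was named from this count, after its values were seen. Only 25 peaks held both GTCACG and GTCATG, and 411 (25.3%, 23.3% to 27.5%) held at least 1 of them, against 4.43% in the flanks. Among all Pax7 peaks 13.7% held GTCATG and 23.995% either hexamer. The median distance of GTCATG from the summit was 17.5 bp, and 143 peaks (55.0%) had it within 20 bp. GTCACA, which also differs from GTCACG in 1 letter, was present near 227 summits (14.0% against 5.45%) and was not compared between classes of peaks. Hexamers that overlap a homeodomain half-site, AATTAG (201 peaks, 12.4% against 3.91%), TAATTG (190, 11.7% against 3.63%) and ATTAGT (163, 10.0% against 3.51%), were also among the 20 with the greatest excess.

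**Figure D1:**
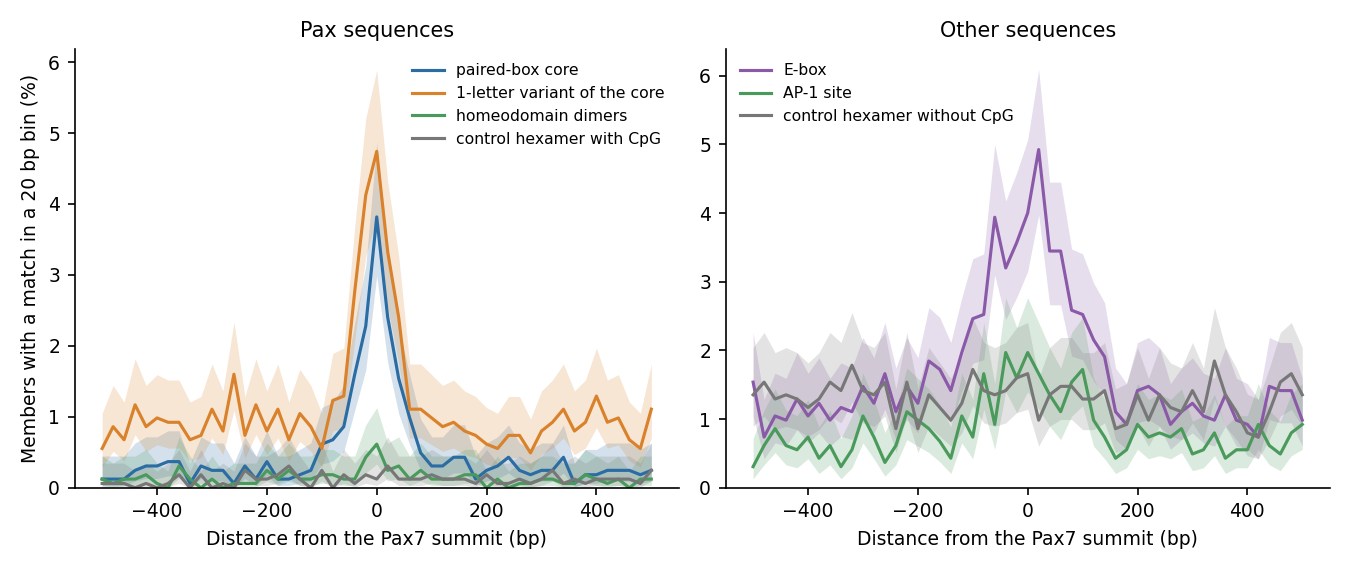
Share of the 1624 proximal peaks with a match in each 20 bp bin, in percent, against distance from the Pax7 summit in bp; lines are shares and bands 95% Wilson intervals. The paired-box core reached 3.82% and the 1-letter variant GTCATG 4.74% in the bin at the summit, while the E-box and AP-1 site, drawn in the other panel with a control hexamer, formed a broader rise.

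GTCACG and GTCATG differed in share between proximal peaks and peaks at gene starts, while the share with either of these 2 did not differ beyond counting error. Within 1 kb of a TSS, 18.6% of 3352 peaks held GTCACG, so that proximal minus TSS peaks gave a difference of -7.75 percentage points (Newcombe interval -9.71 to -5.69). GTCATG went the other way, at 6.59% there, 9.42 points below proximal peaks (7.49 to 11.4). Either hexamer was found in 24.7% of peaks at a TSS and in 25.3% of proximal peaks, a difference of 0.606 points (-1.93 to 3.21). The flanks differed as well. GTCACG was present in 2.39% of the flanks of TSS peaks and in 0.800% of those of proximal peaks. The ratio of summit to flank for GTCACG was thus 7.79 at a TSS and 13.5 in proximal peaks. For GTCATG the ratios were 2.60 and 4.41. GTCATG was picked for its excess at proximal summits alone. Its differences from other classes of peaks, and those of either hexamer, are therefore descriptions and not tests. Peaks at a TSS lay in sequence of 55.6% median GC with an observed to expected CpG ratio of 0.715, proximal peaks in sequence of 46.2% GC with a ratio of 0.264. GTCACG holds a CpG and GTCATG does not, and the part of base composition in the difference was not tested.

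Against intergenic peaks 10 to 100 kb from a TSS, proximal peaks held GTCACG 2.26 points more often (0.603 to 4.04) and GTCATG 1.36 points more often, with an interval that spans 0 (-0.645 to 3.47). Either hexamer was 2.83 points more frequent in proximal peaks (0.429 to 5.30), with the same limit from the choice of GTCATG. Against intergenic peaks over 100 kb away the difference in GTCACG was 3.69 points (1.79 to 5.62) and in either hexamer 3.21 points (0.384 to 6.05). The share with GTCACG in proximal peaks and in peaks inside genes differed by 0.291 points (-1.27 to 2.01).

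Sequences of other factors were also counted. The E-box CAGCTG, a form of the site used by the myogenic basic helix-loop-helix factors such as MyoD and their E-protein partners, lay near 280 proximal summits (17.2%, 15.5% to 19.2%) against 5.23% in the flanks. The AP-1 site TGANTCA, bound by Fos and Jun proteins, lay near 136 (8.37% against 3.26%), and the Tead site GGAATG near 197 (12.1% against 5.42%). CAGCTG was 7.90 points (5.86 to 10.0) and the AP-1 site 5.18 points (3.77 to 6.73) more frequent than at peaks within 1 kb of a TSS. Against intergenic peaks 10 to 100 kb away the intervals spanned 0, with differences of 1.05 points for CAGCTG (-1.02 to 3.23) and 0.367 for the AP-1 site (-1.13 to 2.00). Against peaks inside genes they spanned 0 too, at -0.199 points (-2.13 to 1.86) and 1.18 points (-0.189 to 2.71). Among all Pax7 peaks 15.7% held CAGCTG and 6.82% the AP-1 site. The excess over the flanks was small for the NF-I half-site TTGGCA (6.28% against 4.83%), the MEF3 site TCAGGTT (2.22% against 1.51%) and the Runx site TGTGGT (9.36% against 8.07%), where the intervals at the summit and in the flanks overlapped. Such overlap does not show equal shares, and no interval of these differences was computed. In the whole list of Pax7 peaks the shares were 6.86% against 4.88% for TTGGCA, 9.73% against 7.23% for TGTGGT and 1.33% against 1.63% for TCAGGTT. Among proximal peaks the control hexamers did not separate summit from flank beyond counting error, GCACTG at 6.59% against 6.50% and GTACCG, which holds a CpG, at 0.800% (13 peaks) against 0.493%. Over all Pax7 peaks both were more frequent at the summit, GCACTG at 6.86% (6.52% to 7.21%) against 5.81% and GTACCG at 0.870% (0.752% to 1.01%) against 0.527%.

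**Figure D2:**
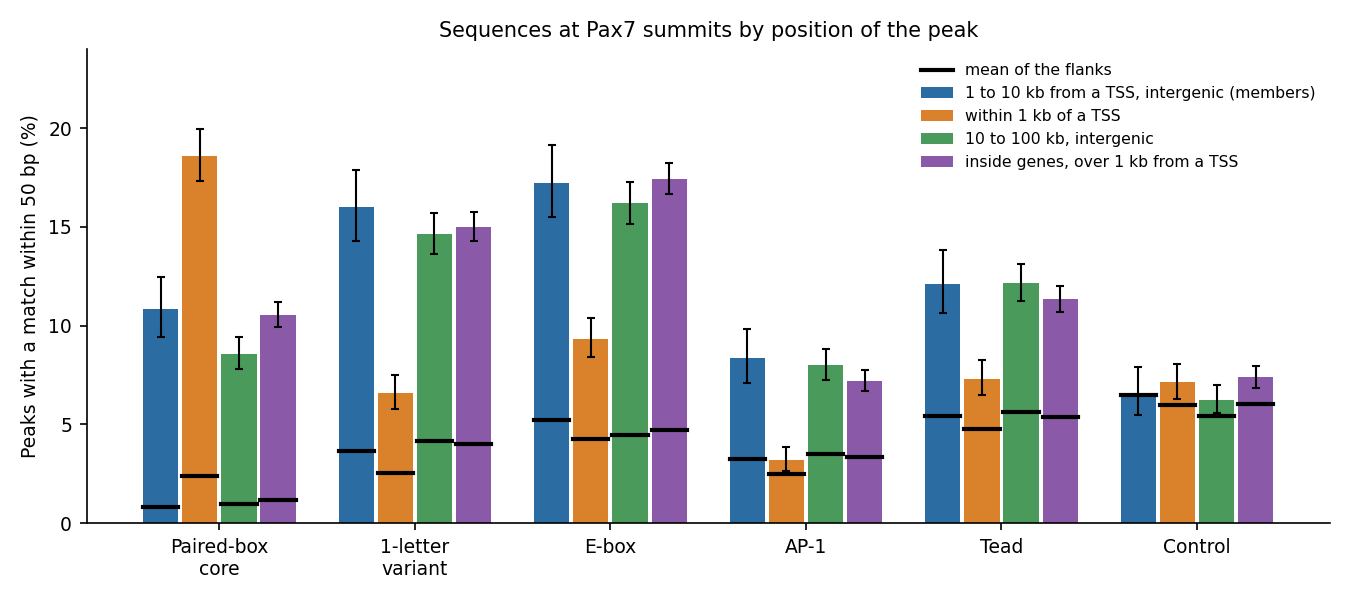
Share of Pax7 peaks with a match within 50 bp of the summit, in percent, for 6 sequences and 4 positions of the peak; bars are shares, whiskers 95% Wilson intervals and black ticks the mean of windows 500 bp to either side. Proximal peaks carried the paired-box core in 10.8% and the 1-letter variant GTCATG in 16.0%, peaks within 1 kb of a TSS in 18.6% and 6.59%.

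Enrichment is given as the fold of pooled ChIP over the local background that MACS2 estimated from pooled input, at the summit. Proximal peaks had a median of 5.08-fold (5.04 to 5.23), quartiles of 4.32 and 6.72, and a range from 2.44 to 27.0. At least 10-fold enrichment was reached by 126 of them (7.76%, 6.55% to 9.16%), against 6.99% of all Pax7 peaks. This share was 2.18 points (0.718 to 3.76) above that of peaks within 1 kb of a TSS and differed from that of intergenic peaks 10 to 100 kb away by -0.160 points (-1.62 to 1.43). At least 5-fold was reached by 867 (53.4%), a difference from the latter of -3.92 points (-6.74 to -1.10). The peaks were narrow, with a median width of 248 bp.

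The share of proximal peaks with the core was highest in the top quartile of fold. From the lowest to the highest quartile of fold, the share with GTCACG was 9.49%, 9.16%, 9.90% and 14.8%, a difference of 5.33 points between the ends (0.836 to 9.85), while the flanks stayed between 0.494% and 1.49%. The share with GTCATG was 13.1%, 14.1%, 16.8% and 20.0%. Of the 176 peaks with GTCACG, 25 (14.2%) were at least 10-fold, against 101 of 1448 without it (6.98%), a difference of 7.23 points (2.61 to 13.3). For GTCATG the shares were 10.0% with it and 7.33% without, a difference of 2.67 points whose interval spans 0 (-0.764 to 7.10). The median fold was 5.44 (5.06 to 5.93) with GTCACG and 5.06 (5.01 to 5.21) without, and these intervals overlapped.

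The 12 strongest proximal peaks lay near genes of many kinds. The peak near Gm11577 reached 27.0-fold, rank 4 of all Pax7 peaks, with a −log10 q-value of 184, 1.21 kb upstream of that pseudogene and 46695 bp from Cd28, the nearest protein-coding gene. The next was chr12:3235303-3235634 at 21.4-fold, 1.14 kb upstream of the protein-coding gene 1700012B15Rik. The peak 7.21 kb upstream of Tmem220 reached 20.3-fold, and that 4.06 kb upstream of the non-coding transcript Gm13936 reached 20.1-fold. These 4 were the proximal peaks of at least 20-fold.

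Among the others, chr5:143584688-143585403 at 19.04-fold lay 5.73 kb upstream of Tnrc18, a chromatin-associated protein, and held ATTAGTCA at 2 places, 7.5 and 41.5 bp from the summit. A peak 3.49 kb upstream of Rgs21, a regulator of G-protein signalling, reached 18.99-fold and one 7.66 kb upstream of Prkcq, protein kinase C theta, reached 18.6-fold. Neither held any of the 4 Pax sequences. The peak 5.80 kb upstream of Mprip, which binds RhoA and myosin phosphatase, reached 18.1-fold. Pseudogenes, small RNAs and other non-coding transcripts were nearest to the rest, with Gm12396 at 19.2-fold, a snoRNA annotated as snoR9_plant at 18.7-fold, Gm12026 at 18.4-fold and Gm12580 at 17.9-fold. Of the 12, 4 held GTCACG, 5 held GTCACG or GTCATG, and 2 held CAGCTG.

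The strongest peaks with ATTAGTCA, after Gm13936 and Tnrc18, were that 2.04 kb upstream of the microRNA gene Mir138-2, at 17.7-fold, where the sequence overlapped an inverted TAAT pair, and that 4.28 kb upstream of 2310007L24Rik, at 14.1-fold. Those near Atr, a DNA damage kinase, and Pltp, a phospholipid transfer protein, reached 11.2-fold and 11.2-fold. The further ones of the 10 strongest were near 1700019G06Rik (9.79-fold), where ATTAGTCA and GTCACG shared bases, Dock3 (8.96-fold), Grm6 (8.87-fold) and Ccdc86 (8.68-fold). The peak near Sik1, a salt-inducible kinase, was the strongest with a pair spaced by 2 bases, at 8.72-fold.

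The proximal zone was denser in peaks than intergenic sequence over 100 kb from a TSS, and its density lay closer to that at 10 to 100 kb. It holds 254 Mb of sequenced bases, 9.94% of the genome, and carried 6.39 peaks per Mb (exact Poisson interval 6.08 to 6.71). Intergenic sequence 10 to 100 kb from a TSS carried 5.99 (5.82 to 6.17) and that over 100 kb away 4.04 (3.85 to 4.22), while sequence within 1 kb of a TSS carried 31.6 (30.5 to 32.7) and the inside of genes 9.43 (9.23 to 9.62). The intervals of the proximal zone and of the 10 to 100 kb zone overlapped, on the autosomes alone too, at 6.99 (6.66 to 7.34) and 6.52 (6.33 to 6.72). Such overlap does not show equal densities, and no interval of the difference was computed.

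Upstream of the nearest TSS lay 1140 proximal peaks (70.2%, 67.9% to 72.4%), in 66.6% of the zone's sequence, at 6.74 per Mb (6.35 to 7.14), and downstream 484 at 5.69 per Mb (5.20 to 6.22). The upstream bin nearest to the TSS, from 1 to 2 kb, carried 7.90 per Mb (6.81 to 9.12), and downstream the same bin carried 5.36 (3.91 to 7.17). GTCACG was as frequent on both sides within counting error, at 11.0% upstream and 10.5% downstream. By distance it was most frequent at 1 to 2 kb (15.1%, 11.1% to 20.3%) and at 8 to 10 kb (13.5%, 10.1% to 17.8%), and lay between 8.67% and 10.1% from 2 to 8 kb.

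**Figure D3:**
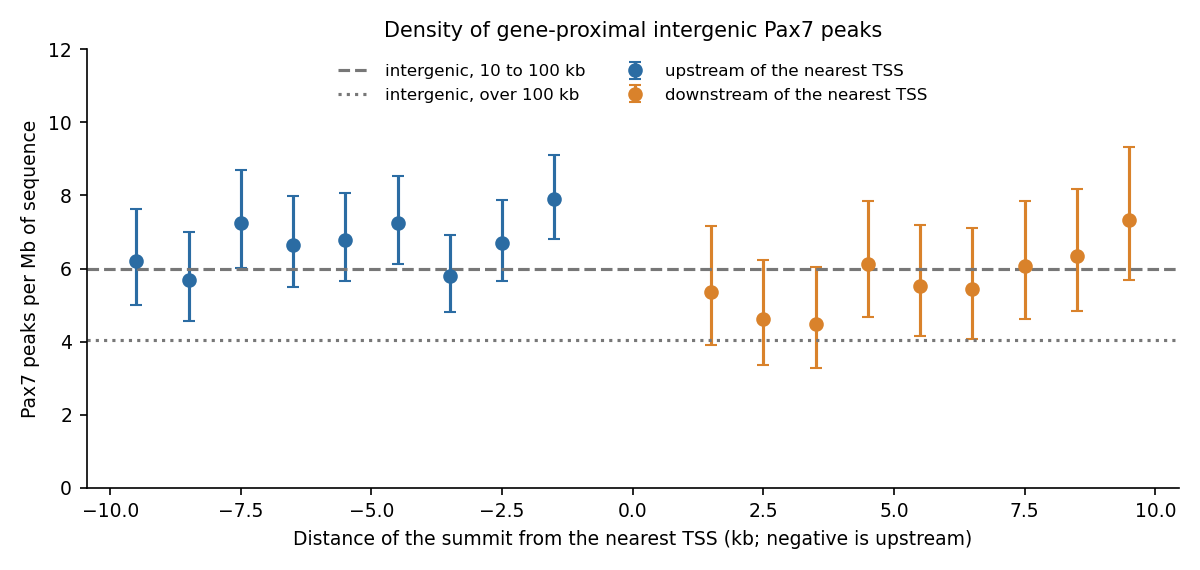
Pax7 peaks per Mb of sequenced bases in each 1 kb bin of distance from the nearest TSS, in kb, with negative distances upstream; points are densities and whiskers exact 95% Poisson intervals, and the horizontal lines are the densities of intergenic sequence farther from genes. The upstream bin from 1 to 2 kb stood at 7.90 per Mb and the other bins between 4.49 and 7.34.

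Gaps between genes transcribed away from each other carried 6.71 peaks per Mb (468 peaks), gaps between genes in the same direction 6.32 (896) and gaps between genes that face each other 6.14 (260), with overlapping intervals. The X chromosome held 15 proximal peaks, 0.623 per Mb (0.349 to 1.03), against 6.99 (6.66 to 7.34) on the autosomes. The whole list of Pax7 peaks stood at 1.499 per Mb on X and 8.50 on the autosomes. Chromosome 1 had the highest density, 10.9 per Mb (9.20 to 12.8).

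Another Pax7 summit lay within 10 kb of 636 proximal peaks (39.2%, 36.8% to 41.6%), which was 7.77 points (5.06 to 10.5) more than for intergenic peaks 10 to 100 kb from a TSS and 6.17 points (3.32 to 9.03) more than for peaks at a TSS. The difference from peaks inside genes was 0.498 points (-2.05 to 3.09). By the rule, every proximal peak has a TSS within 10 kb, and no intergenic peak 10 to 100 kb away does. Sequence within 1 kb of a TSS carried 31.6 peaks per Mb, and its part in the difference of 7.77 points was not tested. For 227 proximal peaks the next summit was within 2 kb, and for 164 it was over 100 kb away.

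The proximal peaks had 1436 different nearest genes, of which 1269 had 1 peak, 148 had 2 and 19 had 3 or more. Pmpcb, a mitochondrial processing peptidase, and Tubb2b, a beta-tubulin, had 4 each, the highest number. Those of Pmpcb lay 2.23 to 4.70 kb upstream and reached 4.02- to 8.51-fold, and those of Tubb2b lay on both sides of the gene and reached 3.97- to 7.15-fold. Fgfr4 and Id2 were among the genes with 3.

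A protein-coding gene was nearest to 1063 peaks (65.5%), a density of 7.16 per Mb of the proximal sequence of such genes (6.74 to 7.60), and another type of gene to 561, at 5.31 per Mb (4.88 to 5.77). Pseudogenes, with 168 peaks, stood at 3.60 per Mb (3.08 to 4.19), and long intergenic non-coding RNAs, with 43, at 10.8 (7.84 to 14.6). Of the 947 protein-coding genes with a proximal peak, 155 (16.4%, 14.1% to 18.9%) also had a Pax7 summit within 1 kb of a TSS, against 14.1% of all protein-coding genes.

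Those 947 genes were 4.24% of all 22350 protein-coding genes, the share against which the gene lists below are read. Since genes differ in the length of intergenic sequence beside them, each list is also given as peaks per Mb of its own proximal sequence, against 7.16 for all protein-coding genes.

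Of the 9 gene lists, that of signals and receptors held the most proximal peaks. Of 96 such genes, 15 (15.6%, 9.70% to 24.2%) had at least 1, with 19 peaks in all at 24.6 per Mb (14.8 to 38.4) and a median of 6.50-fold. The strongest was chr1:72925245-72925885 at 16.2-fold, 4.22 kb upstream of Igfbp5, a secreted protein that binds insulin-like growth factors. Fgfr4, an FGF receptor of muscle progenitors, had peaks of 12.3-, 7.91- and 6.81-fold, all on the downstream side. The strongest lay 387 bp past the end of the gene, 1.34 kb from a transcript start inside it. Nog, which encodes the BMP antagonist noggin, had peaks of 10.7- and 4.01-fold, 9.01 and 4.23 kb downstream. The Notch receptor gene Notch1 had a peak of 8.54-fold and Fgf10, which encodes an FGF ligand, one of 6.99-fold. The interval of the density did not reach that of all protein-coding genes. With each gene counted once, a count added after its values were seen, the list had 19.4 genes with a peak per Mb (10.9 to 32.0), against 6.38 for all protein-coding genes (5.98 to 6.80). All 9 lists were chosen with earlier results of these data known, so these intervals describe the lists and test nothing.

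The FGF pathway also gave Spry2 and Dusp6, both feedback inhibitors of its signal, with a peak of 7.15-fold at the former and of 4.78- and 4.30-fold at the latter. Further genes of the list were the TGF-beta receptor Tgfbr1 (6.54-fold), the secreted Wnt inhibitor Sfrp2 (6.50-fold), the BMP antagonist Grem1 (6.00-fold), the Wnt receptor Fzd4 (5.56-fold), the inhibitory Smad6 (4.92-fold), Igfbp4 (4.16-fold), the HGF receptor Met (3.98-fold) and Igfbp3 (2.74-fold). The last 4 lay below the median of proximal peaks.

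**Figure D4:**
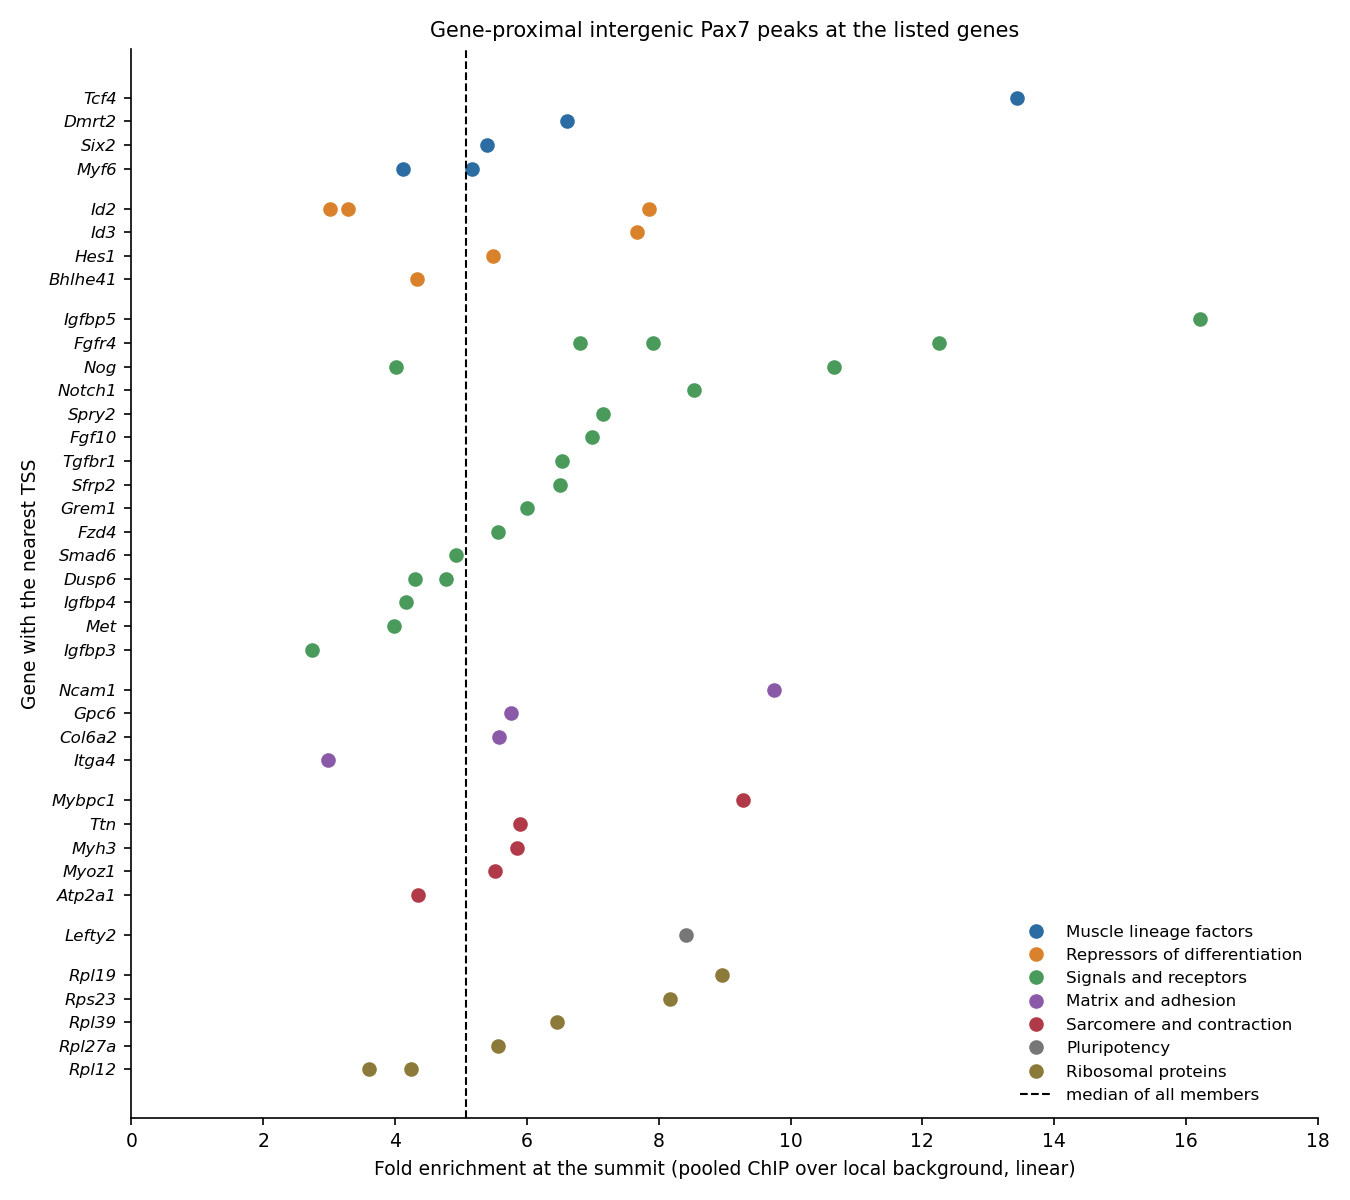
Fold enrichment of each proximal peak, on a linear axis, at the genes of 7 lists, with 1 point a peak and the dashed line at the median of all 1624 proximal peaks, 5.08-fold. Igfbp5 (16.2-fold), Tcf4 (13.4-fold), Fgfr4 (12.3-fold) and Nog (10.7-fold) exceeded 10-fold.

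Repressors of differentiation, which hold progenitors back from forming muscle, had a proximal peak at 4 of 25 genes (16.0%, 6.40% to 34.7%), with 6 peaks at 26.1 per Mb (9.59 to 56.8). Of these peaks 3 belonged to 1 gene, and with each gene counted once the density was 17.4 genes with a peak per Mb (4.74 to 44.6), an interval that holds the 6.38 of all protein-coding genes. Id2, an inhibitor of basic helix-loop-helix factors, had 3 upstream peaks within 2 kb of each other, at 2.73, 4.08 and 4.48 kb from its TSS, of 7.85-, 3.29- and 3.02-fold. Its relative Id3 had a peak of 7.67-fold, 9.74 kb downstream of its nearest transcript start and 11213 bp from that of its nearest protein-coding transcript. The Notch effector Hes1 had a peak of 5.48-fold and the basic helix-loop-helix repressor Bhlhe41 one of 4.33-fold.

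Muscle lineage factors had a proximal peak at 4 of 50 genes (8.00%, 3.15% to 18.8%), with 5 peaks at 12.1 per Mb (3.92 to 28.2), intervals that hold 4.24% and 7.16 per Mb. The strongest was chr18:69495572-69496375 at 13.4-fold, 7.68 kb upstream of Tcf4, which encodes an E-protein that partners the myogenic factors. Dmrt2, a factor of the dermomyotome, had a peak of 6.60-fold 9.11 kb downstream, and Six2 a peak of 5.40-fold. Myf6, the myogenic factor MRF4, had peaks of 5.17- and 4.11-fold at 3.76 and 9.03 kb upstream. Among the 11 peaks of these lists of lineage factors and repressors, those at Dmrt2 and Six2 held 1 of the 4 Pax sequences within 50 bp, against 14.8% of all proximal and 15.4% of all Pax7 peaks.

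The intervals of the next 3 lists held both the share of 4.24% and the density of 7.16 per Mb. Sarcomere and contraction genes had peaks at 5 of 53 (9.43%, 4.10% to 20.3%; 19.0 per Mb, 6.17 to 44.3), led by the slow myosin-binding protein Mybpc1 (9.27-fold), Ttn (5.90-fold) and the embryonic myosin Myh3 (5.85-fold). Matrix and adhesion genes had peaks at 4 of 50 (8.00%, 3.15% to 18.8%; 11.6 per Mb, 3.15 to 29.6), led by Ncam1 (9.74-fold), Gpc6 (5.76-fold) and Col6a2 (5.58-fold). Ribosomal protein genes, a list with no tie to muscle, had peaks at 5 of 76 (6.58%, 2.84% to 14.5%; 14.7 per Mb, 5.40 to 32.0), led by Rpl19 (8.96-fold), Rps23 (8.16-fold) and Rpl39 (6.45-fold).

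The 3 lists of other cell types gave 1 gene. Of 24 pluripotency genes only Lefty2 had a proximal peak, of 8.41-fold. None of 27 genes of endothelium and blood had one, where a limit of 3 counts of the total is 11.1% and the upper Wilson limit 12.5%. None of 22 neural and neural crest genes had one, with limits of 13.6% and 14.9%. These limits lie above 4.24%, so a depletion was not detectable with lists of this size.

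**Figure D5:**
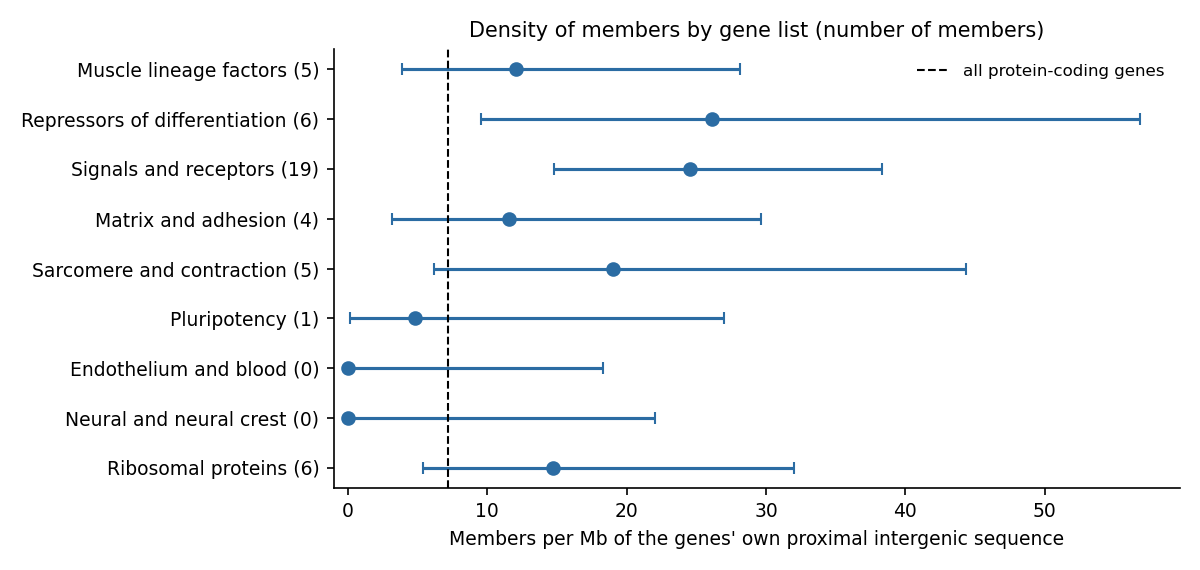
Proximal peaks per Mb of the proximal intergenic sequence that belongs to the genes of each list, with the number of peaks in parentheses; points are densities, whiskers exact 95% Poisson intervals and the dashed line all protein-coding genes, 7.16 per Mb. The intervals of signals and receptors (14.8 to 38.4) and of repressors of differentiation (9.59 to 56.8) lie above the line, the latter not when each gene is counted once (4.74 to 44.6 against 6.38 per Mb).

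Distance from the TSS is continuous, and the peaks nearest to the limits were as follows. Just inside the lower limit were those near Mfap3l (1006 bp from the TSS, 8.54-fold) and Rpl27a (1009 bp, 5.56-fold), and just outside it those near Enthd1 (993 bp, 8.31-fold) and Usp34 (991 bp, 7.32-fold). At the upper limit, the peaks near Tbcb (9982 bp, 4.34-fold) and Gm2018 (9981 bp, 4.13-fold) were inside and those near a U2 snRNA (10008 bp, 4.53-fold) and Trdn (10010 bp, 3.60-fold) outside.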

How the data were processed

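Reads of 2 Pax7 ChIP and 2 input libraries were aligned to NCBIM37 (mm9) by the authors with Bowtie2, kept as unique reads, freed of duplicates with Picard, merged by type and passed to MACS2 at a q-value limit of 0.01. The deposited peak list holds, for each peak, a score, a fold enrichment at the summit (a linear ratio of ChIP over local background), −log10 q-values (and p-values, not used here), and a summit offset. Mappability and merging by the authors set which sites can appear, and the list gives neither the depth nor a value per library.

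Summits were placed on GENCODE vM1 genes (37252) and transcripts (95414) of the same build. Densities used sequenced bases of chromosomes 1 to 19 and X. Each motif was looked for, forward and reversed, in windows of 50 bp around summits and in equal windows centred 500 bp away. Shares have Wilson, differences Newcombe and densities exact Poisson intervals at 95%, and medians order-statistic intervals. Python 3.11.15, pandas 2.3.3, scipy 1.17.1 and pysam 0.24.0 were used, and the scripts were tested on simulated data. Named peaks were the 12 strongest, the 10 strongest with ATTAGTCA, the strongest with each other Pax sequence, all nearest to muscle lineage factors or repressors of differentiation, the 3 strongest of each other list, the genes with the most peaks, and the 2 nearest to each distance limit on either side; other names, and the density with each gene counted once, were added after their values were seen. The peaks and the 9 gene lists were chosen with earlier results of these data known, and 1 listed gene is not reported here. No test was run, since the libraries were pooled before the peaks were called.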

Additional observations from a re-analysis of the deposited data

How the results depend on the processing

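No paired analysis was possible because the deposited list was called on merged libraries and carries no value per replicate, and for the same reason no replicate could be left out. Of 50 alternatives, 31 moved a value by less than its counting interval (or a number by less than 1.5 times) and 19 moved it further. With a fold of at least 5, 867 proximal peaks remained, at 3.41 per Mb, with a median of 6.51-fold, 14.5% of at least 10-fold and 6.81% near a gene with a peak at its TSS. With a −log10 q-value of at least 5 the density was 5.98 per Mb and the median 5.23-fold. With protein-coding genes alone the share of all peaks was 5.92%, the density 7.42 per Mb and the upstream share 81.6% in 78.3% of the sequence. With an upper limit of 5 kb there were 793 peaks, 3.85% of the list, 75.7% of them upstream in 69.8% of the sequence. With a lower limit of 2 kb the share was 6.76%. On autosomes alone, chosen after seeing the data, the density was 6.99 per Mb. GTCACG was found in 7.39% within 25 bp and in 13.98% within 100 bp. Within 2 kb of a TSS instead of 1 kb, 28.0% of proximal peaks were nearest to a gene with a peak there, against 12.4%, and 16.8% when a peak did not count itself, chosen after seeing the data. The upstream share exceeded its share of sequence in each of these settings where both were computed. Intervals cover counting error alone, neighbouring peaks are not independent, and a summit's fold depends on pooled depth that the list does not state.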
